A study of Homo sapiens with 12 samples.

Results

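The 9 genes RRAS, RRAS2, MRAS, HRAS, NRAS, RALA, RALB, RAP1A and RAP1B encode members of the Ras, Ral and Rap branches of the Ras superfamily of small GTPases. Their cytoplasmic transcripts were read by 12 of the 34127 probes of the array, chosen because the RefSeq accession of the probe maps to the gene. The genes are 9 of 27522 gene names. RRAS, MRAS, HRAS, RALA, RALB and RAP1A have 1 probe each, and RRAS2, NRAS and RAP1B have a brighter and a dimmer probe. The set was drawn up because RRAS was lower after IPPK knock-down, and the question was whether its relatives shared that decrease.

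RNA came from the cytoplasmic fraction of U2OS cells, a human osteosarcoma cell line, transfected by lipofection with 20 nM siRNA and cultured for 48 h. The 4 groups were a control siRNA and siRNA against DBP5, GLE1 or IPPK, with 3 arrays each from independent experiments. Each of 3 slides carried 1 array of every group. DBP5 and GLE1 act together in the export of mRNA through the nuclear pore, and IPPK makes the inositol phosphate IP6, a cofactor of that step. Several siRNAs were designed for the control, GLE1 and IPPK, and the methods do not say which of them went to the arrays. All groups share the cell line, the transfection reagent and the fractionation.

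Small GTPases switch between a GTP-bound active form and a GDP-bound inactive form. Exchange factors load GTP and GTPase-activating proteins speed its hydrolysis. HRAS and NRAS are classical Ras proteins that pass growth factor signals to the RAF-MEK-ERK kinase cascade. RRAS, RRAS2 (also called TC21) and MRAS form the R-Ras group. RRAS is known for promoting integrin activity and adhesion, and MRAS for acting with SHOC2 on RAF. RALA and RALB control vesicle delivery through the exocyst, and RAP1A and RAP1B control integrin adhesion and cell junctions. Most of these proteins reach membranes through a lipid at the C-terminus.

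Probes well above background made up 70.9% to 73.8% of all probes on the IPPK siRNA arrays and 73.4% to 77.7% on the others, control included. The siRNA targets were lower in their own groups. DDX19B, the transcript of DBP5, was 0.0643 ± 0.00121 of control (SD, n = 3 arrays), GLE1 0.102 ± 0.0274 and IPPK 0.187 ± 0.00815. IPPK transcript was also 0.42 ± 0.0142 of control after DBP5 siRNA (adjusted p = 7.9e-08), and DDX19B was 0.49 ± 0.0237 of control after GLE1 siRNA (adjusted p = 3.6e-08). After IPPK siRNA, DDX19B was 0.874 ± 0.0277 of control (adjusted p = 0.00776) and GLE1 transcript 0.717 ± 0.0464 (adjusted p = 0.0199). IPPK transcript was 0.821 ± 0.0461 of control after GLE1 siRNA (adjusted p = 0.00213), and GLE1 transcript did not pass after DBP5 siRNA (adjusted p = 0.0726). Among 8 mesenchymal and bone genes, 7 were well above background on all 12 arrays, and COL1A2 was so on 4 arrays. The same held for 5 of 6 epithelial genes and 4 of 6 blood cell genes, and no gene of these lists was below background throughout. Of these marker genes the epithelial CLDN4 differed most between group means, with a mean log2 signal of 11.14 in control, 14.39 after GLE1 siRNA and 8.83 after IPPK siRNA. Other epithelial genes did not follow it after GLE1 siRNA, with mean log2 signals in control and after GLE1 siRNA of 9.49 and 9.04 for EPCAM, 17.17 and 16.60 for KRT18, 13.47 and 13.47 for KRT8, and 6.46 and 6.43 for CLDN7, while CDH1, well above background on 8 arrays, went from 3.48 to 6.78. After IPPK siRNA most of them were lower together with CLDN4, with mean log2 signals of 8.57 for EPCAM, 12.55 for KRT8, 16.39 for KRT18 and 6.25 for CLDN7, while CDH1 was higher at 4.78. Of the mesenchymal and bone genes, COL1A1 went from 12.58 in control to 10.59 after IPPK siRNA and RUNX2 from 7.75 to 7.04, while VIM went from 17.85 to 17.90 and TWIST1 from 5.89 to 5.93. The others were lower too, COL1A2 from 4.15 to 3.27, SPARC from 12.93 to 12.71, FN1 from 6.03 to 5.84 and ALPL from 5.93 to 5.87. MALAT1, MEG3 and KCNQ1OT1, RNAs known for nuclear retention, were well above background on all 12 arrays, and from control to IPPK siRNA their mean log2 signals went from 8.53 to 7.45, from 10.55 to 10.60 and from 12.38 to 12.60. In the same order they were at 8.0, 10.47 and 13.02 after DBP5 siRNA, and at 8.2, 10.87 and 13.22 after GLE1 siRNA. The part of these differences in the results below was not tested. In bulk RNA, fewer cells of a kind and less RNA per cell cannot be told apart.

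The decrease of RRAS after IPPK knock-down was not shared by most of its relatives. Leaving out RRAS, for which the set was drawn up, 2 of the 8 relatives were lower past an adjusted p of 0.05 in limma (NRAS and RAP1A), a share near the 28.0% of all 20818 genes tested, and 4 were higher (RRAS2, MRAS, RALA and RAP1B), where 27.3% of all genes were. HRAS and RALB did not pass. After DBP5 knock-down, NRAS and RAP1A were the 2 lower genes (27.5% of all genes) and RRAS, RRAS2, MRAS, RALA, RALB and RAP1B the 6 higher genes (26.8%). After GLE1 knock-down, RRAS and NRAS were the 2 lower genes (31.5% of all genes) and RRAS2, MRAS, HRAS, RALA, RALB and RAP1B the 6 higher genes (30.6%). The 3 comparisons use the same control arrays, and RRAS was chosen against them. RRAS2, MRAS, RALA and RAP1B rose in each of them, as did 13.1% of all genes, and NRAS fell in each, as did 12.5% of all genes.

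**Figure D1:**
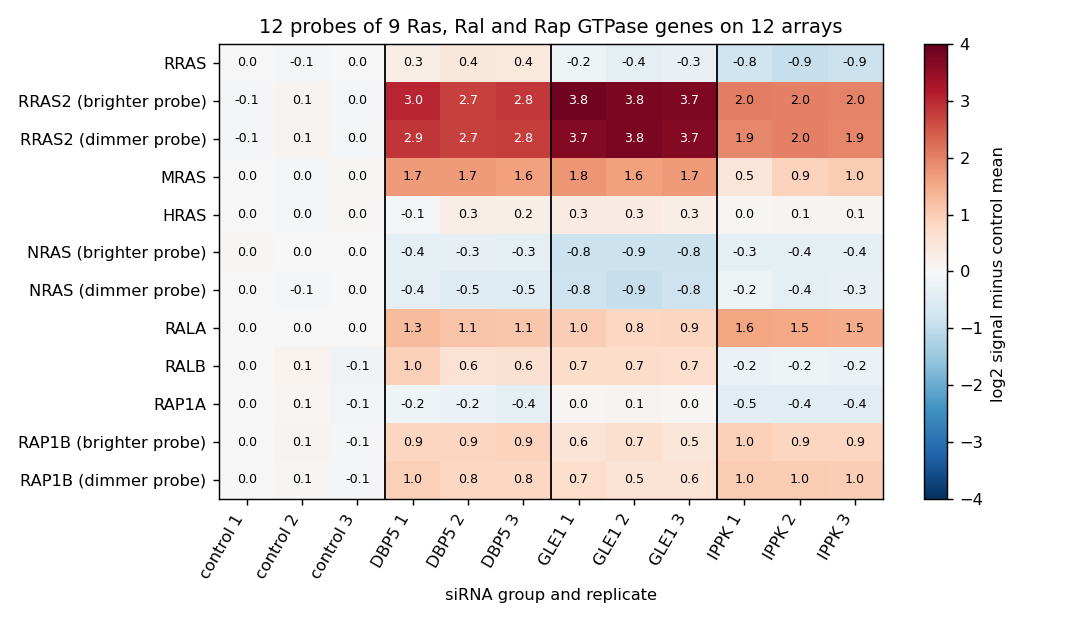
Log2 signal of each of the 12 probes (rows) on each of the 12 arrays (columns, by siRNA group and replicate) minus the mean of the 3 control arrays, printed in each cell and coloured from blue (lower) to red (higher). The RRAS2 rows are the reddest in every knock-down, the RRAS row turns from red after DBP5 siRNA to blue after GLE1 and IPPK siRNA, and the brighter and dimmer probes of RRAS2, NRAS and RAP1B run side by side.

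The log2 signal of RRAS (NM_006270) was 13.15, 13.07 and 13.15 on the control arrays and 12.34, 12.21 and 12.27 on the IPPK siRNA arrays. It was 13.40, 13.57 and 13.56 after DBP5 siRNA and 12.91, 12.76 and 12.83 after GLE1 siRNA. The 4 groups did not overlap, and ran from DBP5 siRNA, the highest, through control and GLE1 siRNA to IPPK siRNA. RRAS after IPPK siRNA was 0.555 ± 0.0247 of control (SD, n = 3), the value that prompted the set and here a description. Of all 20818 genes, 7.35% had a lower log2 fold change in that comparison. After GLE1 knock-down RRAS fell to 0.815 ± 0.0421 of control (adjusted p = 0.00213), and after DBP5 knock-down it rose to 1.3 ± 0.0865 times control (adjusted p = 4.6e-04). Both comparisons use the control arrays against which RRAS was chosen, which favours a fall and works against a rise. The rise after DBP5 siRNA did not pass in the methods' t-test, which pairs the replicates, after Benjamini-Hochberg adjustment. The methods name that test in their general statistics. For its arrays the paper used rank-product lists and a fold-change cut, which were not run here.

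RRAS2 (NM_012250), of the same R-Ras group, was higher where RRAS was lower, after IPPK and GLE1 siRNA, and rose after DBP5 siRNA as RRAS did. Its log2 fold change was the largest of the 9 genes in each knock-down. Its brighter probe had log2 signals of 9.37, 9.52 and 9.38 on the control arrays and 11.47, 11.45 and 11.42 on the IPPK siRNA arrays. After DBP5 siRNA the log2 signals were 12.47, 12.16 and 12.25, and after GLE1 siRNA they were 13.27, 13.19 and 13.16. No group overlapped another, and control was the lowest. RRAS2 rose to 4.07 ± 0.0766 times control after IPPK knock-down (adjusted p = 1.3e-08). It rose to 7.31 ± 0.841 times control after DBP5 knock-down (adjusted p = 2.7e-09) and to 13.8 ± 0.568 times control after GLE1 knock-down (adjusted p = 2.5e-10). Ordered by log2 fold change among 20818 genes, it stood at place 170 from the top after IPPK siRNA, 20 after DBP5 siRNA and 16 after GLE1 siRNA. The dimmer probe gave ratios of 3.9, 6.87 and 13.1 after IPPK, DBP5 and GLE1 siRNA.

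MRAS (NM_012219), the other R-Ras relative, also rose. Its log2 signal was 9.77, 9.71 and 9.80 on the control arrays, 11.45, 11.47 and 11.40 after DBP5 siRNA and 11.52, 11.39 and 11.46 after GLE1 siRNA. On the IPPK siRNA arrays it was 10.23, 10.69 and 10.78, between the control arrays and those of the other knock-downs, with replicate 1 apart from replicates 2 and 3. MRAS was 3.2 ± 0.0814 times control after DBP5 knock-down (adjusted p = 8.6e-07) and 3.24 ± 0.147 times control after GLE1 knock-down (adjusted p = 4.5e-07). After IPPK knock-down it was 1.75 ± 0.34 times control (adjusted p = 1.8e-04). The last call did not pass in the methods' t-test after Benjamini-Hochberg adjustment. As a description, since RRAS was chosen for its value there, the log2 fold change after IPPK siRNA was 2.87 higher for RRAS2 and 1.66 higher for MRAS than for RRAS.

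**Figure D2:**
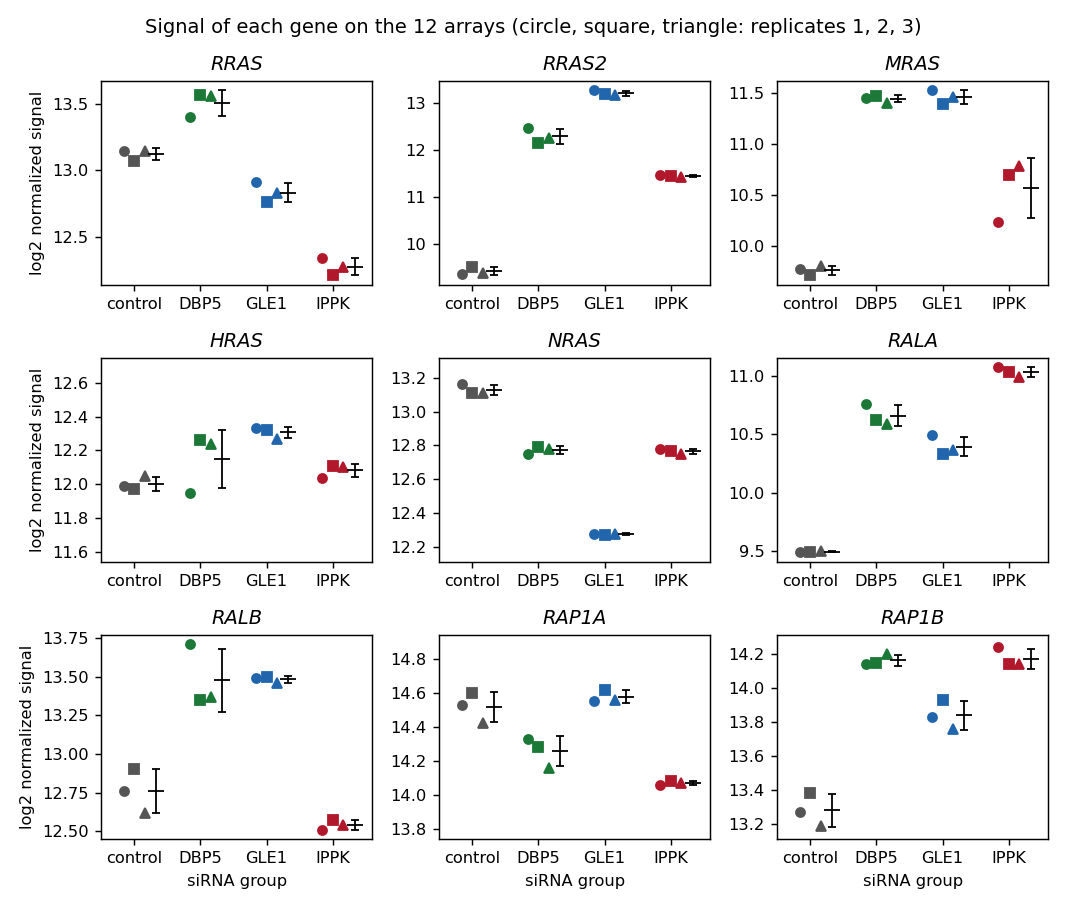
Log2 normalized signal (vertical axes, a scale of its own for each gene) of the 9 genes on the arrays of each siRNA group, with replicates 1, 2 and 3 as circle, square and triangle and the mean ± SD of the 3 arrays beside them. RRAS is lowest after IPPK siRNA at 12.21 to 12.34, whereas RRAS2, MRAS, RALA and RAP1B lie above control in every knock-down and NRAS lies below it.

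Of the classical Ras genes, NRAS fell in each knock-down and HRAS passed the test in 1 of the 3. NRAS (NM_002524) had log2 signals of 13.16, 13.11 and 13.11 on the control arrays with its brighter probe, and 12.78, 12.77 and 12.75 on the IPPK siRNA arrays. After DBP5 siRNA its log2 signals were 12.75, 12.79 and 12.78, level with IPPK siRNA, and after GLE1 siRNA they were 12.28, 12.27 and 12.28, the lowest. NRAS fell to 0.779 ± 0.00914 of control after IPPK knock-down (adjusted p = 2.0e-05). It fell to 0.783 ± 0.00931 of control after DBP5 knock-down (adjusted p = 2.4e-05) and to 0.556 ± 0.00274 of control after GLE1 knock-down (adjusted p = 2.2e-08). The dimmer probe, at ratios of 0.82, 0.723 and 0.55 after IPPK, DBP5 and GLE1 siRNA, fell too. NRAS and RAP1A were the relatives that were lower together with RRAS after IPPK knock-down.

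HRAS (NM_005343) had log2 signals of 11.99, 11.97 and 12.05 on the control arrays and 12.04, 12.11 and 12.10 on the IPPK siRNA arrays. The groups overlapped, and the log2 difference between IPPK siRNA and control of 0.08 (95% interval -0.09 to 0.25) did not pass (adjusted p = 0.4). After DBP5 siRNA the log2 signals were 11.95, 12.26 and 12.24, with replicate 1 below all control arrays and replicates 2 and 3 above them (adjusted p = 0.129). Without that array the DBP5 difference passed (log2 difference 0.24, adjusted p = 0.00153), and so did the difference between IPPK and DBP5 siRNA (log2 -0.16, adjusted p = 0.0153). After GLE1 siRNA HRAS was at 12.33, 12.32 and 12.27, above all control arrays, and 1.23 ± 0.0261 times control (adjusted p = 0.00512).

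The Ral genes parted after IPPK knock-down. RALA (NM_005402) had log2 signals of 9.49, 9.49 and 9.50 on the control arrays and 11.07, 11.03 and 10.99 on the IPPK siRNA arrays. The arrays of DBP5 siRNA, at 10.76, 10.62 and 10.59, and of GLE1 siRNA, at 10.49, 10.33 and 10.36, lay between them. RALA rose to 2.9 ± 0.0816 times control after IPPK knock-down (adjusted p = 1.3e-08), to 2.24 ± 0.138 times control after DBP5 knock-down (adjusted p = 1.0e-07) and to 1.86 ± 0.115 times control after GLE1 knock-down (adjusted p = 3.2e-07). RALA was the only gene of the 9 that was highest after IPPK siRNA and passed limma against both other knock-downs.

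RALB (NM_002881) had log2 signals of 12.76, 12.90 and 12.62 on the control arrays and 12.51, 12.57 and 12.54 on the IPPK siRNA arrays. Every IPPK siRNA array was below every control array, and the log2 difference of -0.22 (95% interval -0.44 to 0.01) did not pass (adjusted p = 0.0835). It did pass without control replicate 3 (adjusted p = 0.0402) and without DBP5 replicate 1, which enters only the shared estimate of the spread (adjusted p = 0.0194). After DBP5 siRNA RALB was at 13.71, 13.35 and 13.37 and after GLE1 siRNA at 13.49, 13.50 and 13.46, above all control arrays. The ratios to control were 1.65 ± 0.235 after DBP5 knock-down (adjusted p = 9.7e-05) and 1.65 ± 0.0222 after GLE1 knock-down (adjusted p = 6.9e-05). In the methods' t-test after Benjamini-Hochberg adjustment the rise after DBP5 knock-down did not pass.

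The Rap genes parted after IPPK and DBP5 knock-down, where RAP1A fell and RAP1B rose. RAP1A (NM_001010935) had log2 signals of 14.53, 14.60 and 14.42 on the control arrays and 14.06, 14.08 and 14.07 on the IPPK siRNA arrays. It was at 14.33, 14.28 and 14.16 after DBP5 siRNA, below all control arrays, and at 14.55, 14.62 and 14.56 after GLE1 siRNA, which overlapped control. RAP1A fell to 0.733 ± 0.0041 of control after IPPK knock-down (adjusted p = 7.8e-05) and to 0.835 ± 0.0481 of control after DBP5 knock-down (adjusted p = 0.00318). The second of these did not pass in the methods' t-test after Benjamini-Hochberg adjustment. After GLE1 siRNA the log2 difference was 0.06 (95% interval -0.08 to 0.19; adjusted p = 0.424).

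RAP1B (NM_015646) had log2 signals of 13.27, 13.38 and 13.19 on the control arrays and 14.24, 14.14 and 14.14 on the IPPK siRNA arrays with its brighter probe. After DBP5 siRNA it was at 14.14, 14.15 and 14.20, level with IPPK siRNA, and after GLE1 siRNA at 13.83, 13.93 and 13.76. Every knock-down array was above every control array. RAP1B rose to 1.86 ± 0.0734 times control after IPPK knock-down (adjusted p = 7.7e-07), to 1.85 ± 0.0414 times control after DBP5 knock-down (adjusted p = 9.2e-07) and to 1.48 ± 0.0846 times control after GLE1 knock-down (adjusted p = 1.8e-05). Its dimmer probe gave ratios of 2.01, 1.83 and 1.51 in the same order.

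Among all genes, the 9 lay on both sides of the centre of each distribution. The median log2 fold change of the 8 relatives, without RRAS, was 0.44 after IPPK siRNA, 0.80 after DBP5 siRNA and 0.64 after GLE1 siRNA, beside medians over all genes of -0.03, -0.02 and 0.01. The log2 fold changes of the relatives ran from -0.45 to 2.02 after IPPK siRNA, where the 5th and 95th percentiles of all genes were -1.04 and 1.08. RRAS2 and RALA lay above the 95th percentile there, and no relative lay below the 5th. After DBP5 siRNA the 95th percentile was 1.03, passed by RRAS2, MRAS and RALA, and after GLE1 siRNA it was 1.26, passed by RRAS2 and MRAS.

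**Figure D3:**
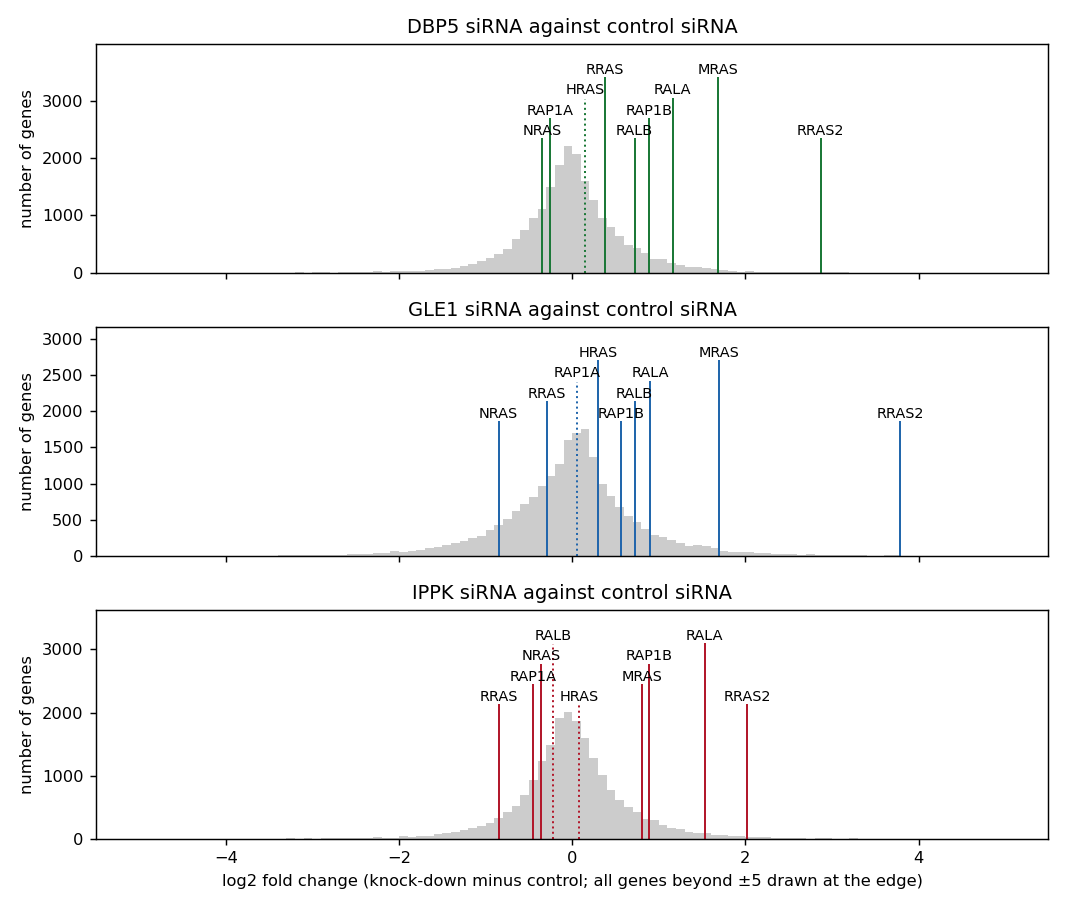
Number of genes (vertical axes) by log2 fold change against control (horizontal axis, knock-down minus control) for the 20818 genes tested, in grey, with a line at the value of each of the 9 genes, solid where limma's adjusted p was under 0.05 and dotted otherwise. RRAS is the lowest of the 9 after IPPK siRNA at -0.85 and RRAS2 the highest at 2.02, and RRAS2, MRAS, RALA and RAP1B lie above 0 in every knock-down.

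The knock-downs were also compared with each other. RRAS is again left out of the counts that involve IPPK siRNA. Between IPPK and DBP5 knock-down, RRAS2, MRAS, RALB and RAP1A were the 4 of 8 relatives lower after IPPK siRNA (23.8% of all genes) and RALA the 1 higher gene (25.1%). Between IPPK and GLE1 knock-down, RRAS2, MRAS, HRAS, RALB and RAP1A were the 5 of 8 lower relatives (29.4% of all genes), and NRAS, RALA and RAP1B the 3 higher genes (30.8%). Between DBP5 and GLE1 knock-down, RRAS2 and RAP1A were the 2 genes lower after DBP5 siRNA (26.5% of all genes), and RRAS, NRAS, RALA and RAP1B the 4 higher genes (28.0%). Compared with the other knock-downs rather than with control, RRAS2, MRAS, RALB and RAP1A were thus lower after IPPK siRNA in limma. In the methods' t-test after Benjamini-Hochberg adjustment, RRAS2, MRAS, RALB and RAP1A did not pass between IPPK and DBP5 knock-down, MRAS and RAP1B did not pass between IPPK and GLE1 knock-down, and RRAS, RAP1A and RAP1B did not pass between DBP5 and GLE1 knock-down. At the unadjusted threshold that the methods state in their general statistics, the calls said here and above to be lost in that test passed, except RAP1A between IPPK and DBP5 knock-down. RRAS after IPPK siRNA was 0.425 ± 0.0189 of its level after DBP5 siRNA and 0.681 ± 0.0303 of that after GLE1 siRNA, both given as a description.

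The size of these differences varied between genes. RRAS2 after IPPK siRNA was 0.557 ± 0.0105 of its level after DBP5 siRNA (adjusted p = 1.0e-05) and 0.295 ± 0.00555 of that after GLE1 siRNA (adjusted p = 2.6e-08). MRAS was 0.546 ± 0.106 of its level after DBP5 siRNA and 0.54 ± 0.105 of that after GLE1 siRNA, and RALB 0.523 ± 0.0114 and 0.521 ± 0.0114. MRAS and RALB did not pass between DBP5 and GLE1 knock-down, with log2 differences of -0.02 (95% interval -0.29 to 0.26) and 0.00 (95% interval -0.23 to 0.22). NRAS (log2 difference -0.01, 95% interval -0.10 to 0.08) and RAP1B (log2 difference 0.01, 95% interval -0.14 to 0.15) did not pass between IPPK and DBP5 knock-down, though the dimmer NRAS probe was higher after IPPK siRNA (ratio 1.13, adjusted p = 0.0316). That call of the dimmer probe was lost with the authors' values and with another background correction, as given below.

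In limma, leaving out an array changed calls between knock-downs for RAP1A and HRAS. RAP1A after IPPK siRNA was 0.878 ± 0.00491 of its level after DBP5 siRNA (adjusted p = 0.022). The call was lost without DBP5 replicate 1 (adjusted p = 0.0663), DBP5 replicate 2 (0.0602), IPPK replicate 1 (0.0537), IPPK replicate 2 (0.0531) or IPPK replicate 3 (0.0553), and with only the 6 arrays compared (0.0554). HRAS after IPPK siRNA was 0.859 ± 0.0204 of its level after GLE1 siRNA (adjusted p = 0.0273). That call was lost without GLE1 replicate 1 (adjusted p = 0.0707), GLE1 replicate 2 (0.0693), IPPK replicate 1 (0.0757), IPPK replicate 2 (0.0524) or IPPK replicate 3 (0.0532), and with scaling to the 75th percentile (0.0678).

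Likeness to RRAS was measured as the root mean square difference, over the 12 arrays, between the log2 ratios to the control mean of RRAS and of another gene. It is a description without a test, since the arrays include those for which RRAS was chosen. Of 18418 other genes, each well above background on the 12 arrays, the 5 most like RRAS were CWC27 at 0.088, OLMALINC at 0.09, CLCN6 at 0.12, MEIS3 at 0.12 and SLC6A16 at 0.121. CWC27, a protein of the spliceosome, had ratios to control of 1.27 with DBP5 siRNA, 0.843 with GLE1 siRNA and 0.583 with IPPK siRNA. The nearest of the 9 genes was RAP1A at 0.43, in place 1834, followed by NRAS at 0.524 and HRAS at 0.568, and the median over all genes was 0.629. RRAS2 stood in place 18406 at 2.791. Among pairs of the 9, HRAS and RAP1A were nearest at 0.372 and RALA and RAP1B next at 0.397, while RRAS2 and NRAS were farthest apart at 3.065.

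The genes that rose in every knock-down and the gene that fell in every knock-down were set beside their promoters. RefSeq promoter windows on GRCh38.p14 of 300 bases, reaching from 250 bases before the start site to 50 after it, matched 8 of the 9 genes, and RRAS was not matched. The 100 bases before the start site are shown 5′ to 3′ on the strand of the gene, with the start that had the most CpG in its window for RRAS2 (4 starts) and MRAS (3 starts). Capitals mark motifs found on either strand. The GC box was searched as GGGCGG and the E box as CACGTG. The cAMP response element was searched as TGACGTCA and the ETS motif as CCGGAAGT. The CCAAT box and the TATA box, searched as TATAAA, were also looked for. None of these motifs overlaps another in the stretches shown.
RRAS2, chr11:14358468-14358567, minus strand: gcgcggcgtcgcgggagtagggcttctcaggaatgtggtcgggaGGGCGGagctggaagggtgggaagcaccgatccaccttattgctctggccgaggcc
MRAS, chr3:138348750-138348849, plus strand: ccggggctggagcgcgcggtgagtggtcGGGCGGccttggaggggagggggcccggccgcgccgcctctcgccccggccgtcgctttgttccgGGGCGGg
RALA, chr7:39623472-39623571, plus strand: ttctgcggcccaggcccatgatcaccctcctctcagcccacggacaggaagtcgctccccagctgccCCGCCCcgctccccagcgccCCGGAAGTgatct
RAP1B, chr12:68610799-68610898, plus strand: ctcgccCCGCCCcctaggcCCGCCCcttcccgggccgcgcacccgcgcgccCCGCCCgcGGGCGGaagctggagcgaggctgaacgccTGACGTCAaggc
NRAS, chr1:114716772-114716871, minus strand: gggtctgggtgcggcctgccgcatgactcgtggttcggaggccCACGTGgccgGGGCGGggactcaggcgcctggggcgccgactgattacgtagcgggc

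All 5 of these windows hold a GC box, as do 45.0% of 35116 promoter windows in the table. RAP1B holds 6 and, alone among the 5, a cAMP response element, found in 1.85% of all windows. RALA and NRAS hold an ETS motif (4.14% of all windows), that of NRAS lying after the start, and NRAS holds an E box (7.26%). The TATA box, in 11.5% of all windows, and the CCAAT box, in 34.6%, were in none of the 5. GC content was 75.7% for RRAS2, 80.3% for MRAS, 72.3% for RALA, 75.7% for RAP1B and 57.3% for NRAS, beside a median of 58.7% over all windows. The windows of RRAS2 and MRAS were picked for their CpG, which favours a high GC content and a GC box, whose letters hold a CpG. The other starts of RRAS2 had 46%, 63.3% and 42.3% GC, the last of them without a GC box, and those of MRAS had 76.3% and 60.7%. Among the genes not shown, RAP1A, at 43.7% GC, held none of the 6 motifs, HRAS held 5 GC boxes and 1 CCAAT box, and RALB held 2 of each. A match in these windows is a description of the sequence.

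Genes around the 9 GTPases, in 12 lists of the pathway, moved in both directions. Of 119 listed genes, 108 were tested. After IPPK knock-down 44 of the 108 were lower (40.7%) and 23 higher (21.3%), and the median log2 fold change was -0.10. After DBP5 knock-down 34 were lower and 29 higher (median 0.00), and after GLE1 knock-down 34 lower and 28 higher (median -0.04). The background shares and medians of all genes are those given above.

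Other GTPases of the Ras family moved both ways. Of 21 tested, 11 were lower and 4 higher after IPPK knock-down, 11 and 5 after DBP5 knock-down, and 8 and 4 after GLE1 knock-down. DIRAS3, an imprinted Ras relative that restrains growth, had the largest fall after IPPK knock-down, at 0.286 ± 0.0149 of control (adjusted p = 4.4e-08), and after GLE1 knock-down (adjusted p = 9.5e-10). Its probe was not well above background on any GLE1 siRNA array, so that its level there was at least 7.32-fold lower than in control, taking for each array the higher of the probe's own signal and the lowest signal well above background. RHEBL1, a relative of the mTORC1 activator RHEB, had the largest fall after DBP5 knock-down, at 0.339 ± 0.0196 of control (adjusted p = 1.1e-08). RAP2A, a Rap relative, had the largest rise after DBP5 knock-down, at 3.2 ± 0.0472 times control, and after IPPK knock-down, at 1.61 ± 0.0453. After GLE1 knock-down the largest rise was that of RRAD, a GTPase of the RGK group, at 14.4 ± 1.13 times control (adjusted p = 2.3e-09), close to the 13.8 ± 0.568 of RRAS2.

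**Figure D4:**
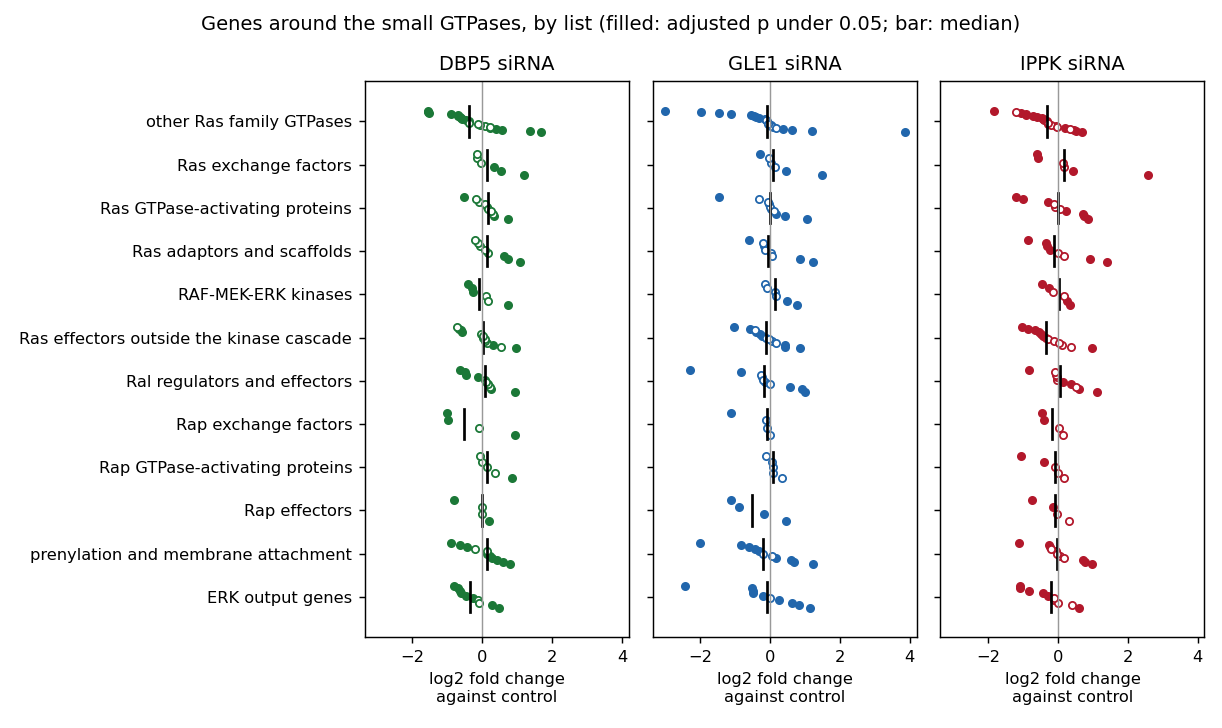
Log2 fold change against control (horizontal axes, 1 panel per knock-down) of the tested genes in each of 12 lists around the 9 GTPases, as filled points where limma's adjusted p was under 0.05 and open points otherwise, with a black bar at the list's median. Most lists spread on both sides of 0, and the highest points are RRAD (other Ras family GTPases) after GLE1 siRNA and RASGRP1 (Ras exchange factors) after IPPK siRNA at 2.59.

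Regulators of Ras moved both ways. RASGRP1, an exchange factor for Ras that responds to diacylglycerol, had the largest rise of the 6 tested exchange factors in each knock-down, at 6.02 ± 0.823 times control after IPPK siRNA (adjusted p = 2.7e-08), 2.29 ± 0.0412 after DBP5 siRNA and 2.79 ± 0.227 after GLE1 siRNA. Of the 6, 2 were lower and 2 higher after IPPK knock-down. Of 10 GTPase-activating proteins, 3 were lower and 4 higher after IPPK knock-down, with RASA1 at 1.8 ± 0.0586 times control and DAB2IP at 0.438 ± 0.0158. After GLE1 knock-down RASA1 was at 2.07 ± 0.0693 and RASA4 at 0.366 ± 0.00983 of control. SHOC2, the scaffold through which MRAS acts on RAF, had the largest rise of 8 adaptors and scaffolds after IPPK knock-down, at 2.66 ± 0.0487 times control (adjusted p = 4.6e-08), and after DBP5 knock-down, at 2.12 ± 0.164. With a ratio of 1.82 after GLE1 siRNA (adjusted p = 1.0e-06), it rose in each knock-down, as MRAS and 13.1% of all genes did. The scaffold KSR1 also rose in each, with ratios of 1.88, 1.54 and 2.34 after IPPK, DBP5 and GLE1 siRNA.

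Downstream, MAP2K2, which encodes the kinase MEK2, had the largest rise of the 6 RAF-MEK-ERK kinases in each knock-down, at 1.28 ± 0.0333 times control after IPPK siRNA (adjusted p = 0.0094), 1.66 ± 0.255 after DBP5 siRNA and 1.7 ± 0.0743 after GLE1 siRNA. MAP2K1, which encodes MEK1, was 0.731 ± 0.0228 of control after IPPK siRNA (adjusted p = 9.4e-05). Of 13 other Ras effectors, 7 were lower and 1 higher after IPPK knock-down, 3 and 2 after DBP5 knock-down, and 5 and 3 after GLE1 knock-down. RASSF1 had the largest fall among them after IPPK siRNA, at 0.495 ± 0.00777 of control. Of 10 genes commonly used as ERK output, 5 were lower and 1 higher after IPPK knock-down, 6 and 2 after DBP5 knock-down, and 5 and 4 after GLE1 knock-down. ETV4, a transcription factor, was 0.474 ± 0.018 of control after IPPK siRNA, and DUSP6, an ERK phosphatase, was 0.185 ± 0.021 of control after GLE1 siRNA (adjusted p = 1.8e-08).

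Partners of Ral and Rap also moved in both directions. Of 10 Ral regulators and effectors, 1 was lower and 4 higher after IPPK knock-down, 4 and 2 after DBP5 knock-down, and 3 and 3 after GLE1 knock-down. RALGPS2, a Ral exchange factor, had the largest rise in each knock-down, from 1.91 ± 0.23 times control after DBP5 siRNA to 2.19 ± 0.149 after IPPK siRNA. Of 4 Rap exchange factors, 2 were lower and 0 higher after IPPK knock-down, and RAPGEF6 fell in each knock-down, to 0.733 ± 0.0358 of control after IPPK siRNA. Of 5 Rap GTPase-activating proteins, 2 were lower after IPPK knock-down and 1, SIPA1, was higher after DBP5 knock-down, at 1.82 ± 0.189 times control. RASIP1, a Rap effector, fell in each knock-down, to 0.6 ± 0.0214 of control after IPPK siRNA.

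Of 11 genes that attach the GTPases to membranes, 3 were lower and 3 higher after IPPK knock-down, 3 and 6 after DBP5 knock-down, and 5 and 4 after GLE1 knock-down. RCE1, the protease that trims prenylated Ras proteins, had the largest fall after IPPK siRNA, at 0.467 ± 0.0174 of control (adjusted p = 1.1e-06), and after GLE1 siRNA, at 0.251 ± 0.0178. FNTB, the beta subunit of farnesyltransferase, had the largest rise after IPPK siRNA, at 1.97 ± 0.0647 times control. RAP1GDS1, which binds Rap1 and other prenylated GTPases, had the largest rise after DBP5 siRNA, at 1.75 ± 0.144 times control, and was also higher after IPPK and GLE1 siRNA, with ratios of 1.66 and 1.5.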

How the data were processed

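Per the file headers, the authors read the arrays with Agilent Feature Extraction, and the deposited spot values are linear intensities after subtraction of the local background. The authors also deposited a table of log2 values, normalized by LOESS regression in R according to the methods, which followed the median spot intensity and was used as an alternative. Here the log2 intensity was normalized by cyclic loess, after control spots and 169 to 358 outlier spots per array were left out. Each gene name was given its brightest probe. A gene was kept if every array of some siRNA had that probe well above background (20818 of 27522 gene names). All 12 probes of the 9 genes passed on all 12 arrays. Ratios are differences of group means of log2 values turned back to ratios, with the SD of the 3 ratios to the mean of the other group. The 6 comparisons were tested by limma 3.58.1 in R 4.3.3, two-sided, with 1 mean per siRNA over 12 arrays and Benjamini-Hochberg adjustment over all genes within a comparison, at 0.05. The 95% intervals use limma's standard error with 8 residual degrees of freedom. Arrays give no molecule counts, and their number limits the precision. P-values rest on the spread between the 3 arrays of a group, pooled over the 4 groups and drawn by limma toward a value shared across genes. Without a block for the replicate number, that spread includes differences between slides.

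The 9 genes, the lists and the tests were chosen with earlier results of these data known. The genes named from a list are those with the largest fall and the largest rise per knock-down among genes past limma whose 3 arrays lay on 1 side of all control arrays, and not all of them are given. The marker genes named and the choice of promoters followed after values were seen.

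The pairing of arrays by replicate number was checked on deviations from group means. The 18 pairs of arrays with the same number correlated at 0.318 to 0.513 across genes, the 36 others at -0.285 to -0.05, and the number marks the slide. A block for the number was therefore fitted as an alternative. Normexp (offset 50) was run on the median spot signal, since no mean spot signal is held in the tables used. The fit was tested on simulated data. Tables and figures used Python 3.11.15, pandas 2.3.3, scipy 1.17.1 and matplotlib 3.10.9.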

Additional observations from a re-analysis of the deposited data

How the results depend on the processing

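Over 9 genes and 6 comparisons, 484 of 486 results kept their direction and their side of the threshold under the alternatives that changed normalization, background correction, the values' source, filter, probe choice, the replicate block or the arrays fitted, and the exceptions were HRAS between IPPK and GLE1 siRNA with scaling to the 75th percentile and RAP1A between IPPK and DBP5 siRNA with only the 6 arrays compared. No direction of a call turned. With the replicate block, which pairs arrays of 1 slide, no call on the 9 genes changed, and RRAS had adjusted p-values of 0.00102 after DBP5 siRNA and 0.00377 after GLE1 siRNA (log2 fold changes 0.38 and -0.29). Leaving out each array in turn kept 634 of 648 results. Leaving out RRAS, 2 to 3 of the 8 relatives were then lower after IPPK siRNA against control (28.0% of all genes with all arrays).

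The methods' t-test after Benjamini-Hochberg adjustment lost 13 of the calls, 4 against control (RRAS, RALB and RAP1A after DBP5 siRNA and MRAS after IPPK siRNA) and 9 between knock-downs, and the cause was not tested. At the unadjusted threshold of the methods it kept 53 of 54 results and lost RAP1A between IPPK and DBP5 siRNA. With it, 1 of the 9 genes was lower after DBP5 siRNA against control, 1 was lower and 2 were higher after DBP5 against GLE1 siRNA, and 1, RRAS itself, was lower after IPPK against DBP5 siRNA, so that 0 of the 8 relatives were (3 at the unadjusted threshold and 4 in limma). Over all genes it called 2604 lower and 2443 higher after DBP5 siRNA and 3688 lower after IPPK siRNA against control, 2518 lower and 2791 higher after DBP5 against GLE1 siRNA, and 1877 lower and 2072 higher after IPPK against DBP5 siRNA. The dimmer NRAS probe no longer passed between IPPK and DBP5 siRNA with the authors' values or with normexp (log2 0.07 in both). The median log2 fold change of all genes lay between -0.072 and 0.014 under every scaling. Signal over background limits values of dim probes, and the 12 probes of the 9 genes were well above it on all arrays.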
